A study of Homo sapiens with 25 samples.

Results

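The comparison described here sets Jurkat cells kept for 6 days at 12.5% histidine against Jurkat cells kept for the same time at 25% histidine. It holds 5 of the 25 libraries of the series: 2 libraries labelled 12.5% (replicates 1 and 2) and 3 labelled 25% (replicates 1, 2 and 3), taken by their labels and not by any measured value. Jurkat is an established human T-cell leukaemia line, and all 5 libraries were made from its total RNA on day 6. Apart from the library number, the histidine level of the medium was the only labelled difference between the groups. The rest of the series consists of Jurkat libraries at 100% and 50% histidine on day 6 and at 100%, 50%, 25%, 12.5% and 0% on day 3, and the 3 libraries each at 100% and 50% on day 6 are given below as reference levels. The question the design asks of these 5 libraries is which transcripts still move when histidine is lowered from a level that is already restricted. Separate cultures are not stated for the replicates, and a p-value here therefore speaks only of the scatter among these libraries, which can be technical. Values are normalized counts, and differences are log2(value + 1) at 12.5% minus the same at 25%. A gene was called changed when its adjusted p in limma (Benjamini-Hochberg over 22994 genes) was under 0.05.

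Histidine is an essential amino acid, which human cells take up from the medium and do not make. A shortage leaves transfer RNA uncharged, which activates the kinase GCN2 and, through it, translation of the transcription factor ATF4, whose targets include amino acid transporters, synthetases and regulators of growth. Jurkat cells resemble an early thymic stage in that they express the recombination enzymes RAG1 and RAG2 and the terminal transferase DNTT, and they carry the surface T-cell receptor complex. The supply of sterols and unsaturated fatty acids for new membrane is controlled by the SREBP transcription factors.

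The 5 libraries had totals of 18.44 to 20.09 mega-counts after normalization and 17932 to 18723 genes with a value of at least 10. The T-cell markers were high in all of them: CD3E, a chain of the receptor complex, lay between 19090 and 22420, and the receptor chain TRAC between 8326 and 9765. The B-cell marker MS4A1 did not exceed 0.651 and the epithelial marker EPCAM did not exceed 7.35, but other markers of these lists were present. The summed B-cell markers were 321.7 to 396.4, the epithelial markers 234.4 to 401.8 and the myeloid markers 220.9 to 341. The library 25% replicate 2 stood apart in transcripts of heart muscle. The cardiac myosin heavy chain MYH7 was at 18210 there, against 39.9 and 5.49 in 25% replicates 1 and 3 and 4.78 and 2.60 in the 12.5% libraries. The atrial myosin MYH6 was at 12190, against 31.9 to 37.7 in the other 4. The summed level of the 15 heart and striated muscle markers was 58630 in that library, 649.7 and 663 in the other 25% libraries and 627 and 620.3 in the 12.5% libraries. Of these markers, 9 were tested, none was called (6 at an unadjusted p under 0.05 in limma) and all 9 were lower at 12.5%. Over all 22994 genes tested, 2432 had an unadjusted p under 0.05 in limma. Globin transcripts were uneven too: the summed erythroid markers were 4952, 4082 and 295 in 25% replicates 1 to 3, and 389 and 248 in the 12.5% libraries. In 25% replicate 1 HBA2 was at 2176 and HBB at 1462, and in 25% replicate 2 they were at 194.3 and 2747. Over the 25 libraries HBA2 was at 1384 to 2176 in library numbers 3 to 5, 11 to 13 and 19 to 21. It was at most 194.3 in the others, and the source of this repeat was not tested. Matrix markers summed to between 5438 and 13170 in these 5 libraries, with no separation by histidine. The part of these transcripts in the differences below was not tested, and each named gene is given with and without 25% replicate 2 where that changes its call. In bulk RNA, fewer cells of a type and less RNA per cell cannot be told apart.

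**Figure D1:**
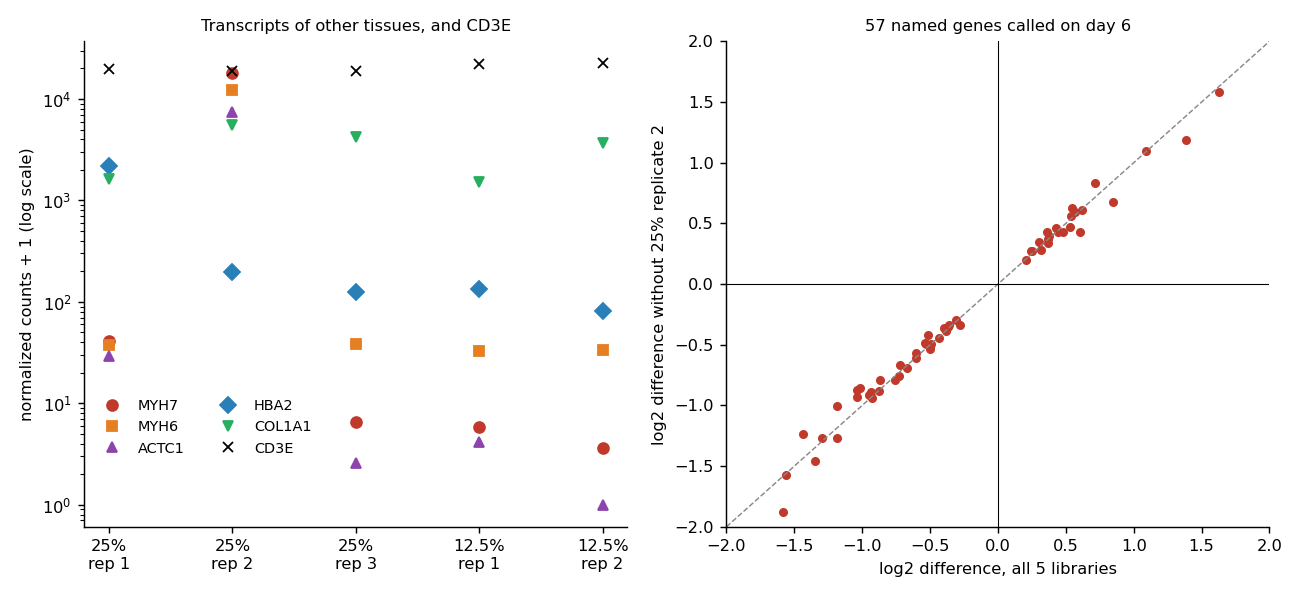
Left: normalized counts plus 1 (log axis) of 5 transcripts of other tissues and of CD3E in the 5 libraries of day 6, with MYH7, MYH6 and ACTC1 high only in 25% replicate 2 and HBA2 highest in 25% replicate 1. Right: log2 difference of the 57 named genes called on day 6, with all 5 libraries (x) and without 25% replicate 2 (y), with each point 1 gene and the dashed line marking equal values, and no gene changes sign.

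Few genes were called when histidine was lowered from 25% to 12.5% on day 6, and most of the called genes fell. Of 22994 genes tested, 201 were called (0.874%), 47 higher at 12.5% (0.204%) and 154 lower (0.67%). At an unadjusted p under 0.05 in limma there were 2432, so genes not called are not shown to be unchanged. In all 201 the 2 libraries at 12.5% did not overlap the 3 at 25%, but a lack of overlap is common with so few libraries: over all genes tested it was seen for 12.7% upward and 14.1% downward. The changes were small, with a median absolute log2 difference of 0.53. Only 5 of the rises and 21 of the falls reached 2-fold, and 15 and 68 reached 1.5-fold. The most firmly separated genes were the lymphoid enzyme DNTT among the falls and the arrestin-like adaptor ARRDC3 among the rises, as the plot of differences against level shows. Without 25% replicate 2, 113 genes were called (0.491%), 31 higher (0.135%) and 82 lower (0.357%), of which 99 were also called with it (20 higher and 79 lower), and no gene of the 201 changed sign. The number depended on which library was left out: 82 and 74 genes without 12.5% replicate 1 or 2, and 322 without 25% replicate 3. Of the named genes, 10 were called under each of the 15 alternatives tried, among them DNTT, RAG1, CHI3L2, MYC, SREBF2, SCD, ARRDC3, TOX2 and FTH1. Of the 57 named genes called, 22 were called with each of the 5 libraries left out in turn, and 35 lost the call without at least 1 of them: 28 and 34 without 12.5% replicate 1 or 2, and 14, 13 and 6 without 25% replicate 1, 2 or 3. Those of the 22 named below are DNTT, RAG1, CD1B, TRBC1, NOTCH3, MYC, CHI3L2, FA2H, NFATC4, LGALSL, TNNT1, SREBF2, DHCR7, SCD, FADS2, ARRDC3, TOX2, FTH1, ADI1, RASAL3 and DDIT4. Against 100% histidine on day 6, 5036 genes were called at 12.5% (21.9%) and 4645 at 25% (20.2%), comparisons that use the same 12.5% or 25% libraries as this one.

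**Figure D2:**
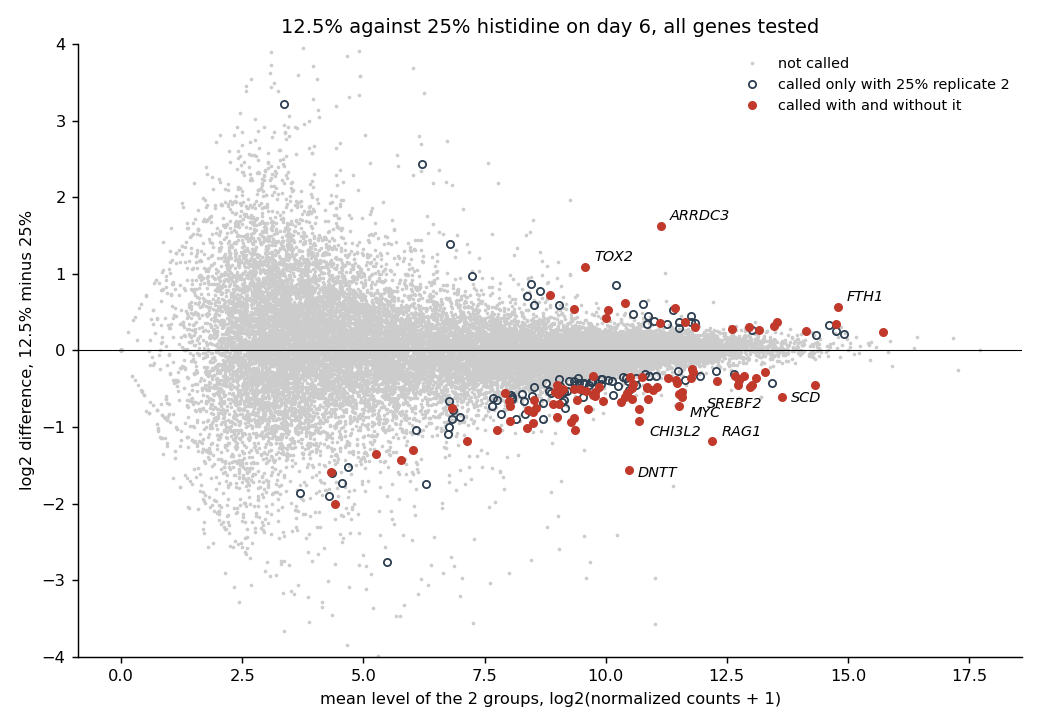
Log2 difference, 12.5% minus 25% on day 6 (y), against the mean level of the 2 groups on the log2(normalized counts + 1) scale (x), with each point 1 gene of the 22994 tested. Filled points are the 99 genes called with and without 25% replicate 2, open circles the 102 called only with it, and most lie below 0; 17 genes, none of them called, fall outside the axis.

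Among the called falls were DNTT, RAG1, RAG2 and CD1B, genes known from early thymocytes. DNTT, the polymerase that adds untemplated nucleotides at receptor gene joints, was at 701 and 749 in the 12.5% libraries and at 2217, 2093 and 2097 in the 25% libraries. The groups were far apart, with little spread within either of them. The fall was 2.94-fold (log2 difference −1.56, SE 0.0556, adjusted p = 3.67e-16). At 100% and 50% histidine on day 6 the mean level was 7199 and 7442, so that 25% already lay well below the unrestricted level and 12.5% lay lower still. DNTT is at chromosome 10, 96304396 to 96338564, on the plus strand (GRCh38, GENCODE 29).

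RAG1, a subunit of the recombinase that cuts receptor gene segments, was at 3048 and 2678 at 12.5% and at 6874, 5819.9 and 6882 at 25%. The lowest 25% library, replicate 2, was still well above both 12.5% libraries. RAG1 fell by 1.19 on the log2 scale (2.28-fold, SE 0.120, adjusted p = 6.49e-06), and at 25% it was already lower than the 100% mean of 8654 (log2 difference −0.41, adjusted p = 0.00793). Its partner RAG2 was at 198 and 195 against 275, 266 and 327, a fall of 1.46-fold (adjusted p = 0.0242). IFTAP, which encodes a protein of intraflagellar transport, fell by 1.35 on the log2 scale from 59.0, 45.4 and 54.8 to 29.3 and 13.7 (adjusted p = 0.0218). Without 12.5% replicate 2, the lowest library, the log2 difference was −0.82 and was not called (adjusted p = 0.574), and without 25% replicate 1 the call was also lost (adjusted p = 0.0725). The 3 genes are neighbours on chromosome 11: RAG1 at 36510709 to 36593156 and IFTAP at 36594493 to 36659290 on the plus strand, with RAG2 at 36575574 to 36598279 on the minus strand sharing 588 exon bases with RAG1 and 321 with IFTAP. Whether strand was used in counting is not given in the sources used here, so reads of the 3 genes may not be fully told apart.

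CD1B, a lipid-presenting surface protein of cortical thymocytes, was at 565 and 610.2 at 12.5% and at 1065, 959 and 968 at 25%, a fall of 1.69-fold (log2 difference −0.76, SE 0.0854, adjusted p = 6.49e-06). PTCRA, the pre-T-cell receptor alpha chain, was low throughout, at 10.4 and 7.28 against 33.9, 18.3 and 35.6, and fell by 1.58 on the log2 scale (adjusted p = 0.0208). With a pseudocount of 10 the log2 difference of PTCRA was −1.03 and was not called (adjusted p = 0.0918), and of the 5 fits with 1 library left out it was called only in the one without 25% replicate 2. TRBC1, a constant region of the receptor beta chain, fell by 0.38 (6157 and 5868 against 8004, 7798 and 7736, adjusted p = 2.03e-04). MYB, a transcription factor of lymphoid progenitors, fell by 0.34 (adjusted p = 0.00246). In each of these 4 genes the groups did not overlap, as in all 201 called genes. CD3E went the other way, at 22051 and 22417 against 19745, 19095 and 19087, a rise of 1.15-fold (adjusted p = 0.0218, and 0.0689 without 25% replicate 2).

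Of 44 tested members of the T-lineage list 1 was higher and 7 were lower, against 0.204% and 0.67% of all genes tested. The other 36 members were not called. The median log2 difference of the 44 was −0.01, against 0.000452 over all genes tested. The members called lower were DNTT, RAG1, CD1B, TRBC1, MYB, PTCRA and RAG2. Among members that did not pass the test, named after their values were seen, were the kinase LCK (log2 difference −0.05, adjusted p = 0.83), the kinase ZAP70 (−0.05, adjusted p = 0.93) and the transcription factor TCF7 (−0.10, adjusted p = 0.52). Without 25% replicate 2 the same list gave 0 higher and 7 lower.

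NOTCH3 and MYC, which belong to the NOTCH programme of T-cell leukaemia, were lower at 12.5%. NOTCH3, a receptor of that pathway, was at 455 and 400.1 against 739.9, 867 and 842. Both 12.5% libraries lay far below the lowest 25% library. It fell by 0.93 on the log2 scale (1.91-fold, SE 0.136, adjusted p = 2.55e-04), while its level at 25% was near the 100% mean of 848. MYC, a driver of growth and ribosome production, was at 2318 and 2061 at 12.5% and at 3776, 3477 and 3614 at 25%. The 12.5% libraries were separated from the 25% libraries, which in turn lay below the 100% mean of 7069. MYC fell by 0.73 (1.66-fold, SE 0.0808, adjusted p = 6.49e-06). Of 16 tested NOTCH targets 0 were higher and 3 were lower, against 0.204% and 0.67% of all genes tested. The 3 were MYC, NOTCH3 and PTCRA, and the median log2 difference over the list was −0.20. Classical targets HES1 (−0.48, adjusted p = 0.78) and NOTCH1 itself (−0.08, adjusted p = 0.86) did not pass the test. Apart from MYC itself, no member of the 35 genes of MYC and ribosome biogenesis was called.

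**Figure D3:**
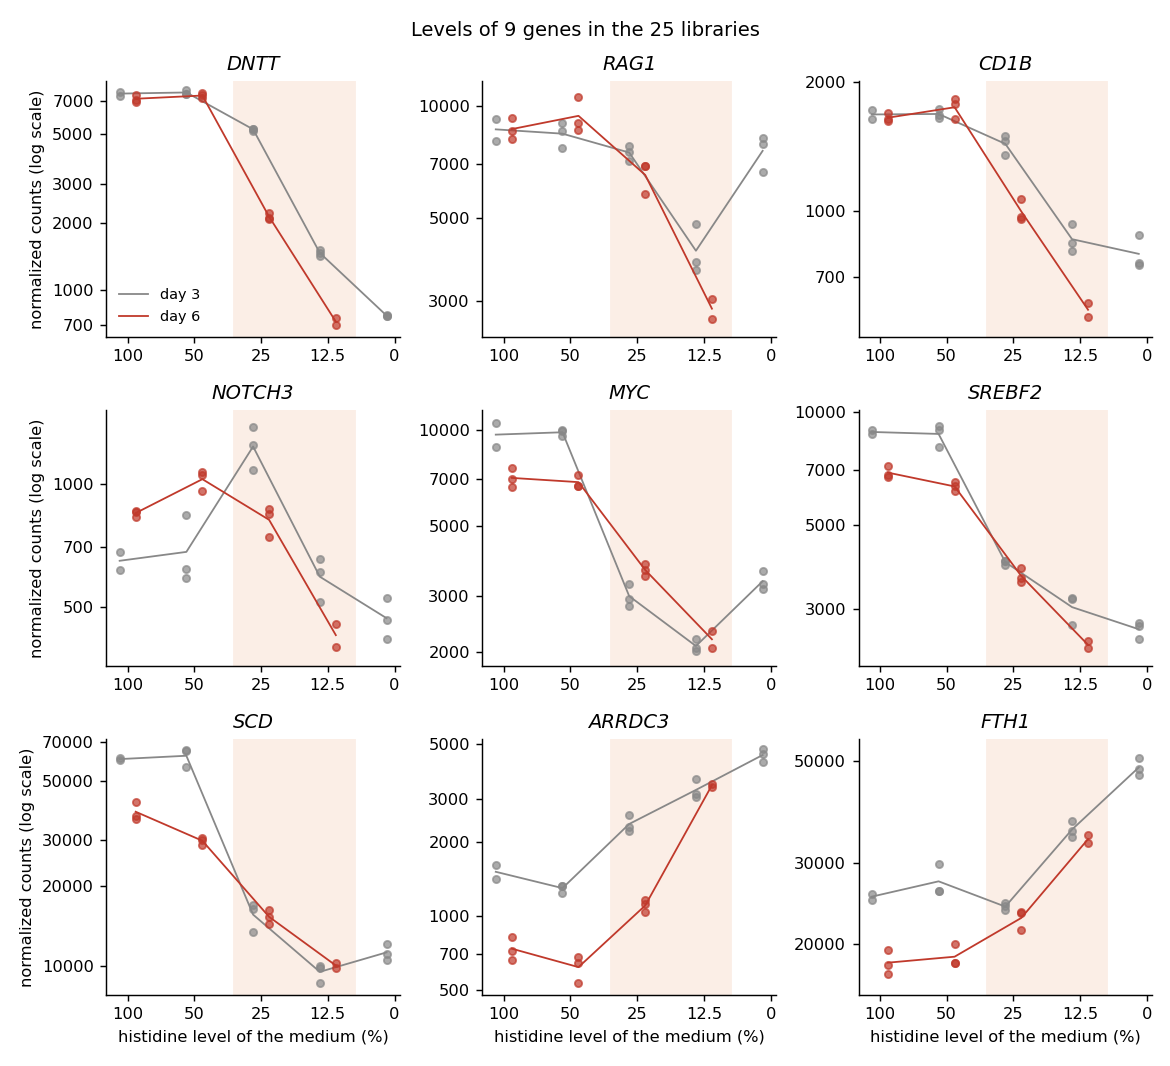
Normalized counts (log axes) of 9 genes in the 25 libraries against the histidine level of the medium, with day 3 in grey and day 6 in red; each point is 1 library, lines join the group means, and the shaded band marks 25% and 12.5%. DNTT, RAG1, CD1B, NOTCH3, MYC, SREBF2 and SCD were lower and ARRDC3 and FTH1 higher at 12.5% than at 25% on day 6. Their libraries did not overlap, as in all 201 called genes.

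Other large falls were spread over genes of different roles. CHI3L2, a chitinase-like secreted protein, was at 1138 and 1134 at 12.5% and at 2209, 2126 and 2137 at 25%. The libraries within each group were nearly equal, and both groups lay far below the 100% mean of 9446. It fell by 0.92 on the log2 scale (SE 0.0798, adjusted p = 1.03e-07). FA2H, the hydroxylase that makes 2-hydroxy fatty acids for sphingolipids, was at 263 and 232 against 470.3, 497 and 465, a fall of 0.95 (adjusted p = 7.91e-07). The transcription factors NFATC4 (−1.04, adjusted p = 2.21e-04) and PRDM16 (−1.02, adjusted p = 0.00182) fell by about as much. Among genes of lower level were CCM2L (28.2 ± 5.11 against 79.1 ± 20.6, SD, n = 2 and 3), DSCAML1, a neuronal adhesion molecule (37.7 ± 16.6 against 90.0 ± 12.2), GAREM1, an adaptor of growth factor signalling (84.1 ± 1.75 against 195 ± 44.5), and LGALSL, a galectin-like protein (138 ± 7.15 against 290.2 ± 65.8). All 4 were called with and without 25% replicate 2. Without 12.5% replicate 2, CCM2L (−1.26, adjusted p = 0.156), DSCAML1 (−0.84 in place of −1.29, adjusted p = 0.296), GAREM1 (−1.16, adjusted p = 0.0995) and PRDM16 (−0.84, adjusted p = 0.133) were not called, and GAREM1 was not called without 12.5% replicate 1 either (adjusted p = 0.0714). TNNT1, the slow skeletal troponin T, fell by 0.87 (327 and 395 against 652, 738 and 593, adjusted p = 3.98e-05). TNNT1 is a muscle gene and was highest in 25% replicate 2, the library with the heart transcripts, and without that library it fell by 0.79 (adjusted p = 4.85e-04).

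The called genes of the sterol and fatty acid lists all fell. SREBF2, the transcription factor that drives cholesterol genes, was at 2463 and 2361 at 12.5% and at 3529, 3849 and 3632 at 25%. Both 12.5% libraries lay below every 25% library, and the 100% mean of 6892 was higher than both groups. SREBF2 fell by 0.60 on the log2 scale (1.52-fold, SE 0.0694, adjusted p = 8.57e-06). DHCR7, the last enzyme of cholesterol synthesis, fell by 0.49 (adjusted p = 5.87e-04), and INSIG1, which retains the SREBP complex in the endoplasmic reticulum, fell by 0.50 (adjusted p = 0.00133). HMGCS1, an early enzyme of the same pathway, stood level at 1052 and 1131 against 1087, 1106 and 1047 (log2 difference 0.02, adjusted p = 0.977). Both groups lay well below its 100% mean of 2741. Of 25 tested cholesterol genes, 0 were higher and 4 lower, against 0.204% and 0.67% of all genes tested. The median of the list was −0.10. Against 100%, 22 of the 25 were lower at 12.5% (11.1% of all genes tested) and 21 at 25% (9.24% of all genes tested), and these comparisons share their libraries with the 12.5% to 25% step.

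SCD, the desaturase that makes monounsaturated fatty acids, was at 9861 and 10301 at 12.5% and at 14474, 15373 and 16257 at 25%, with a 100% mean of 38207. The fall was 1.52-fold (log2 difference −0.61, SE 0.0887, adjusted p = 5.39e-04). FADS2 and FADS1, which desaturate polyunsaturated fatty acids, fell by 0.54 (adjusted p = 2.27e-04) and 0.36 (adjusted p = 0.00545). They lie on opposite strands of chromosome 11 and share 490 exon bases. ACSL3, which couples fatty acids to coenzyme A, fell by 0.51 (adjusted p = 0.0105, and 0.0682 without 25% replicate 2). MID1IP1, an activator of acetyl-CoA carboxylase, fell by 0.27 (adjusted p = 0.0186, and 0.0556 without that library). In total 0 of 15 fatty acid genes were higher and 5 were lower, against 0.204% and 0.67% of all genes tested. The median of the list was −0.27. At an unadjusted p under 0.05 in limma 1 was higher and 8 were lower. Without 12.5% replicate 2 FADS1 and ACSL3 were not called, and without 12.5% replicate 1 ACSL3 was not called either. FASN (−0.17, adjusted p = 0.60) and ACACA (−0.10, adjusted p = 0.89), the enzymes of chain synthesis, did not pass.

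The promoters of these genes are shown because SREBF2 acts through a short element, and the windows let its letters be read beside the values above. A window of 250 bases before to 50 after the start of each gene was taken from RefSeq (GRCh38.p14) and searched on both strands for the sterol regulatory element TCACNCCAC. The element was found in 313 of 27305 windows (1.15%). Among called cholesterol genes with a window it was in 1 of 3 (SREBF2) and in 0 of 15 others. Among called fatty acid genes it was in 1 of 5 (MID1IP1) and in 0 of 9 others. The matches, in capitals, lie 133 bases before the start of SREBF2 on the strand of the gene (chr22:41832855-41833154, plus strand) and 40 bases before the start of MID1IP1 on the other strand, where they read in reverse complement (chrX:38801209-38801508, plus strand). They are matches of letters, and binding was not measured.
SREBF2: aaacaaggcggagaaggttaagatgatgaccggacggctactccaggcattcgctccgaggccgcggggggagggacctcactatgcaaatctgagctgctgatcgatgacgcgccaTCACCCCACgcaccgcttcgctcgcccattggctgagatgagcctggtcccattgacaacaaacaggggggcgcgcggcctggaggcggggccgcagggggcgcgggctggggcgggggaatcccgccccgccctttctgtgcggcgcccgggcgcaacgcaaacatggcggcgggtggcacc
MID1IP1: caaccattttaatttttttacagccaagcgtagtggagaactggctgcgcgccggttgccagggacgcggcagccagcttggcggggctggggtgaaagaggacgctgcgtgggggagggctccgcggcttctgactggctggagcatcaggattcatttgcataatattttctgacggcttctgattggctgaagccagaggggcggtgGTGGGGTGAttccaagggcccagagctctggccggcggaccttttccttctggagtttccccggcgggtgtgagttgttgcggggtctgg

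Among the rises, ARRDC3 stood out. ARRDC3, an arrestin-like adaptor that sorts receptors and transporters for degradation and is induced in quiescent cells, was at 3359.6 and 3464 at 12.5% and at 1117, 1038 and 1160.2 at 25%. Both 12.5% libraries were far above every 25% library. The rise was 3.09-fold (log2 difference 1.63, SE 0.103, adjusted p = 1.43e-10). At 100% and 50% the mean was 737 and 619.9, so 25% was already somewhat higher than the unrestricted level. TOX2, an HMG-box transcription factor of T cells, was at 1106 and 965 against 464, 489 and 502, a rise of 2.13-fold (log2 difference 1.09, SE 0.129, adjusted p = 1.36e-05). Its groups were far apart and 25% replicate 2 was in the middle of its group.

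Among the rises were 5 of 25 tested NRF2 and redox genes, against 0.204% of all genes tested. FTH1, the heavy chain of ferritin, was at 34527 and 33077 at 12.5% and at 23363, 23527 and 21503 at 25%. It was among the most abundant of the called genes, with groups clearly apart. FTH1 rose 1.48-fold (log2 difference 0.57, SE 0.0607, adjusted p = 3.45e-06). In GENCODE 29, 62.4% of its exon bases are shared with BEST1 on the other strand. NQO1, a quinone reductase, was at 800.1 and 749 against 543, 554 and 504 and rose by 0.54 (adjusted p = 0.0181). TXNRD1, thioredoxin reductase, rose by 0.32 (adjusted p = 0.00767). SLC7A11, the cystine importer, rose by 0.48 (adjusted p = 0.0256, and 0.121 without 25% replicate 2), and GSR, glutathione reductase, by 0.34 (adjusted p = 0.0373, and 0.167 without it). In that list 5 members were higher, 0 lower and 20 not called, with a median of 0.11 and 9 members below 0. Without 25% replicate 2 there were 3 higher. FTH1 was called under each of the 15 alternatives tried. NQO1, TXNRD1 and SLC7A11 were not called without 12.5% replicate 1, nor without 12.5% replicate 2. Other members such as the glutathione synthesis subunit GCLM (0.09, adjusted p = 0.86) did not pass the test.

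For NRF2 targets the core of the antioxidant response element, TGACNNNGC, was searched in the same RefSeq windows on both strands. It is a loose motif, held by 3702 of 27305 windows (13.6%), and it was in 1 of 2 called NRF2 genes with a window (TXNRD1, not NQO1) and in 3 of 15 others (GCLM, ME1 and PGD). The TXNRD1 window is printed as the only called gene of the list with a match (chr12:104215529-104215828, plus strand). Its matches, in capitals, begin 99 bases before the start on the strand of the gene and 8 bases before it on the other strand.
TXNRD1: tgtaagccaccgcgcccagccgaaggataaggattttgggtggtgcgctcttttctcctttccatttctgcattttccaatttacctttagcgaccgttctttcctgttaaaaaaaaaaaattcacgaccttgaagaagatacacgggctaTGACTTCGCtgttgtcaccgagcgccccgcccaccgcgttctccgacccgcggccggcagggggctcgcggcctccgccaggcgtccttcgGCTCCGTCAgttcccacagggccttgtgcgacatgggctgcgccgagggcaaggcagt

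Further named rises were smaller. ADI1, an enzyme of the methionine salvage pathway, was at 1658 and 1609 against 1116, 1061 and 1019.8 and rose by 0.62 (SE 0.0782, adjusted p = 4.12e-05). Its level at 25% was close to the 100% mean of 1131. RASAL3, a Ras GTPase-activating protein of T cells, rose by 0.55 (adjusted p = 6.80e-04), and CRIM1, a transmembrane protein that binds bone morphogenetic proteins, by 0.72 (adjusted p = 0.00816). SMIM7 rose by 0.53 and RNF139, a ubiquitin ligase that restrains sterol synthesis, by 0.43. HCFC1, a chromatin co-regulator, rose by 0.38 and SH3BP5, a mitochondrial scaffold of JNK, by 0.36. SMIM7, RNF139, HCFC1 and SH3BP5 were called higher with and without 25% replicate 2. Without 12.5% replicate 1, or without 12.5% replicate 2, none of them was called, nor was CRIM1. HCFC1 also lost the call without 25% replicate 1, and SH3BP5 without 25% replicate 1 or 3. LAMP1, a lysosomal membrane protein, was the only called member of 33 autophagy and lysosome genes (0.30, adjusted p = 0.0208). Among SH3BP5's exon bases 47.5% are shared with an antisense gene.

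The called genes of the response to amino acid shortage lay in both directions. Of 24 tested ATF4 and CHOP targets 2 were higher and 3 lower, against 0.204% and 0.67% of all genes tested. The median of the list was 0.05. DDIT4, an inhibitor of the growth kinase mTORC1, was at 928 and 1041 at 12.5% and at 1683, 1523 and 1500.1 at 25%. The 100% mean of 2569 was higher than both groups. DDIT4 fell by 0.67 (1.59-fold, SE 0.0927, adjusted p = 1.36e-04), and 41.2% of its exon bases are shared with an antisense gene. DDIT3, which encodes CHOP and shares 27.2% of its exon bases with a gene on the other strand, was at 481 and 474 against 646, 727 and 701. It fell by 0.53 (adjusted p = 0.0303, and 0.117 without 25% replicate 2). CHAC1, which degrades glutathione, fell by 0.39 (adjusted p = 0.0283, and 0.112 without it). PPP1R15A, which restores translation by directing dephosphorylation of eIF2 alpha, rose by 0.44 (adjusted p = 0.0168, and 0.0671 without it). Without that library the list gave 0 higher and 1 lower, DDIT4 (adjusted p = 5.29e-04).

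Several genes usually followed in this response did not pass. ASNS, asparagine synthetase, was at 1467 and 1435 against 1362, 1274 and 1159, a log2 difference of 0.20 (adjusted p = 0.435). The groups did not overlap, but the difference did not pass the test. TRIB3, a pseudokinase that restrains ATF4, differed by 0.11 (adjusted p = 0.717), SESN2, a leucine sensor, by 0.19 (adjusted p = 0.238), ATF4 itself by 0.09 (adjusted p = 0.571) and ATF3 by −0.29 (adjusted p = 0.480). HARS1, the histidyl-tRNA synthetase, differed by 0.04 (1673 and 1788 against 1757, 1731 and 1579.6, adjusted p = 0.932). None of 17 tested histidine handling genes and none of 21 serine, proline and one-carbon genes was called. At an unadjusted p under 0.05 in limma there were 0 and 4, against 2432 of all 22994 genes tested.

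Among 20 cytosolic tRNA synthetases only WARS1, for tryptophan, was called, at 3492 and 3633 against 2666, 2796 and 2833 (log2 difference 0.37, adjusted p = 0.0111). Its 100% mean was 3327, so that the 25% libraries were the low ones. Of 22 tested amino acid transporters 3 were higher and 1 lower, against 0.204% and 0.67% of all genes tested. The median of the list was 0.04. SLC7A5 and SLC3A2, which together form the LAT1 transporter of large neutral amino acids including histidine, rose by 0.24 (58159 and 58872 against 50283, 51625 and 46794, adjusted p = 0.00644) and 0.25 (adjusted p = 0.0139). Each was called without 25% replicate 2 as well, and neither without 12.5% replicate 1 or 2. With quantile normalization the difference of SLC7A5 was 0.08 and was not called (adjusted p = 0.894). SLC38A5, a transporter of glutamine and histidine, was lower at 461 and 447 against 565, 599.7 and 596 (log2 difference −0.37, adjusted p = 0.0381, and 0.117 without that library). SESN3, an inhibitor of mTORC1, was the only called member of 35 genes that sense amino acid shortage and fell by 0.50 (adjusted p = 0.0218).

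TXNIP, an arrestin-like protein that limits glucose uptake and binds thioredoxin, was at 9428 and 9534 at 12.5% and at 12889, 12642 and 12844 at 25%. The 12.5% libraries were lower, and both groups were far above the 100% mean of 519. TXNIP fell by 0.43 from 25% to 12.5% (adjusted p = 0.0210, and 0.0556 without 25% replicate 2), while against 100% it was higher by 4.19 at 12.5% and by 4.62 at 25%. The cell cycle inhibitor CDKN1B fell by 0.28 (adjusted p = 0.0162), and cyclin D3, CCND3, fell by 0.31 (adjusted p = 0.0159, and 0.0580 without that library). CDKN1A, another cell cycle inhibitor, was at 292 and 322 against 141, 140 and 334, where 1 library at 25% overlapped the 12.5% group (log2 difference 0.71, adjusted p = 0.340). Without that library, 25% replicate 3, it was called higher (1.13, adjusted p = 0.0133). Of 26 tested inhibitors and quiescence genes 1 was higher, ARRDC3, and 2 were lower, TXNIP and CDKN1B. The shares of all genes tested were 0.204% higher and 0.67% lower.

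No G2/M or mitosis gene was called by limma: 0 of 35, with 6 lower at an unadjusted p under 0.05 and a median of −0.07. MKI67, the proliferation antigen, was at 18223 and 19963 against 18567, 20698 and 19048 (log2 difference −0.03, adjusted p = 0.965), and TOP2A, the mitotic topoisomerase, differed by −0.13 (adjusted p = 0.415). Both stood above their 100% means of 9677 and 8684 at either level. Of 36 G1/S genes only CCND3 was called. None of 24 cytosolic heat shock genes was called (5 at an unadjusted p under 0.05). HSPA8 differed by 0.28 (adjusted p = 0.218) and HSPA1B, whose reads may be shared with its near-identical copy HSPA1A, by 0.10 (adjusted p = 0.964). Of 62 ribosomal protein genes only RPSA was called, higher by 0.60 (2187 and 1979.7 against 1425, 1079 and 1675, adjusted p = 0.0332, and 0.151 without 25% replicate 2), and RPSA has many processed copies in the genome that could share its reads. In the tubulin and chaperonin list of 21 genes, TUBA1A, which overlaps TUBA1C on the other strand, rose by 0.37 (adjusted p = 0.0165, and 0.0689 without that library) and TUBB4A fell by 0.72 (adjusted p = 0.00223). EGR1, an immediate early transcription factor, was the only called member of 33 T-cell activation genes (1436 and 1552 against 712, 651 and 1223, log2 difference 0.85, adjusted p = 0.0247, and 0.112 without 25% replicate 2). The median of that list was 0.35, and 28 of the 33 were above 0. At an unadjusted p under 0.05 in limma 13 were higher and 2 lower. Without 25% replicate 3 there were 7 members called higher, and without any other of the 5 libraries 0. None of the tested members of these lists was called: endoplasmic reticulum chaperones (23), p53 targets (24), BCL2 family (18), glycolysis (32), nuclear respiratory chain (35), mitochondrially encoded mRNAs (13), interferon-stimulated genes (39), purine and pyrimidine synthesis (24), small nucleolar RNA hosts (17), replication-dependent histones (30) and neuronal genes (20). Of these 275 genes 34 had an unadjusted p under 0.05 in limma, against 2432 of all 22994 genes tested. Among the 275 were the host transcripts GAS5 (0.16, adjusted p = 0.587) and SNHG12 (−0.07, adjusted p = 0.950), and SNHG12 was at 816.6 and 857.8 on average at 12.5% and 25% against 75.0 at 100%.

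**Figure D4:**
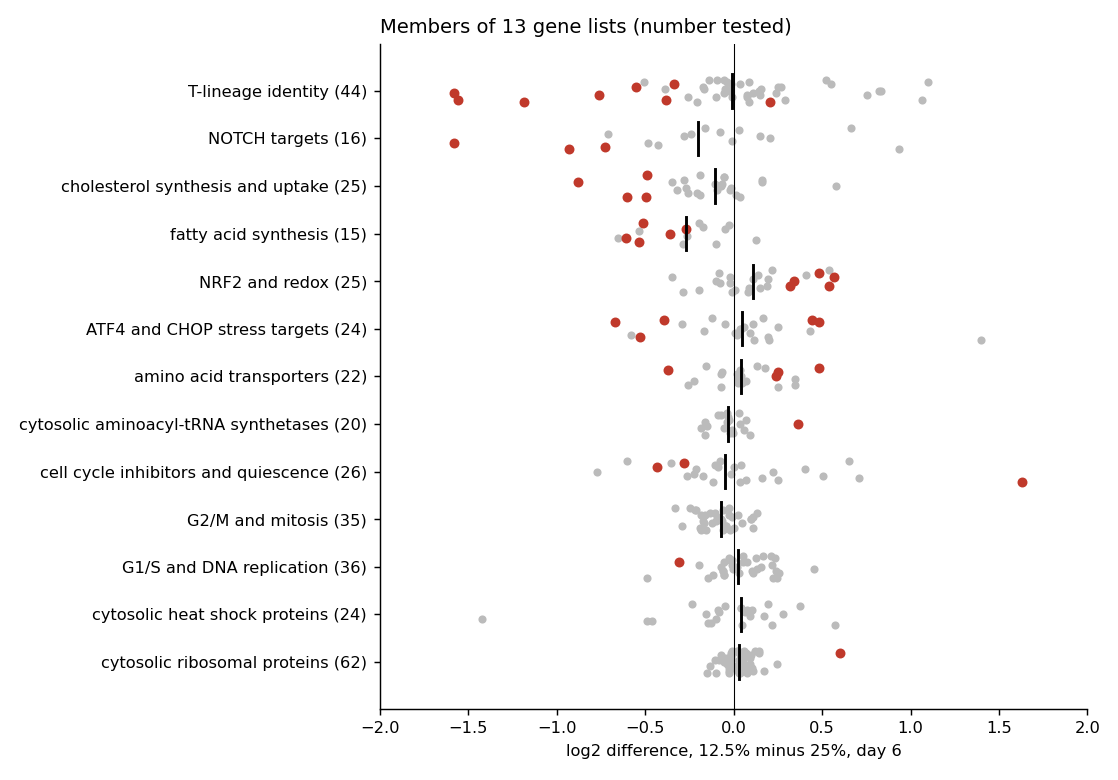
Log2 difference, 12.5% minus 25% on day 6 (x), of every tested member of 13 gene lists (number tested in brackets); each point is 1 gene, red where called, and the black bar is the median of the list. Called members of the sterol and fatty acid lists lie to the left of 0 and those of the redox list to the right, while the G2/M and heat shock lists hold none.

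On day 3 the same lowering from 25% to 12.5% was measured in 3 libraries against 3, none of which is used on day 6. There 1889 genes were called (8.22%), 1243 higher (5.41%) and 646 lower (2.81%), so that 65.8% of the calls were higher. That split depends on the scaling: with totals made equal per library 35.35% were higher, and with quantile normalization 50%. Day 3 has more libraries in the comparison than day 6, so the counts of calls do not compare the size of the response. Of the 201 genes called on day 6, 115 were called in the same direction on day 3, which is 57.2% of the day 6 calls and 6.09% of the day 3 calls. Of the 154 falls 83 were also called lower on day 3, 3 were called higher and 68 were not called. Of the 47 rises 32 were also called higher, 1 was called lower and 14 were not called. DNTT fell on day 3 by 1.84 on the log2 scale (1422, 1470.3 and 1521 at 12.5% against 5298, 5189 and 5276 at 25%, adjusted p = 4.09e-19). RAG1 fell by 0.88, CHI3L2 by 1.12 and NOTCH3 by 1.05 on day 3, and FTH1 rose by 0.56. For none of these 5 genes was the difference between the days called by limma. The adjusted p was 0.109 for DNTT, 0.510 for RAG1, 0.515 for CHI3L2, 0.857 for NOTCH3 and 0.970 for FTH1. This does not show that the changes were equal on both days.

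The difference between the days was called for 102 genes (0.444%), 17 positive (0.0739%) and 85 negative (0.37%), a positive value being a larger rise or smaller fall on day 6. With equal totals 69 were called, 33.33% of them positive against 16.67% in the main scaling, and with quantile normalization 68 (30.88%). It was 33 and 35 genes without 12.5% replicate 1 or 2 of day 6, 67, 65 and 238 without 25% replicate 1, 2 or 3 of day 6, and 62 without 25% replicate 2 of day 3. ARRDC3 rose on day 3 by only 0.46, from 2316, 2569.5 and 2231 to 3149, 3602 and 3041. Its 25% libraries were higher on day 3 than on day 6 while the 12.5% libraries were at a similar level, and the difference between the days was 1.17 (SE 0.138, adjusted p = 1.56e-04). EGR1 went opposite ways, at 1088, 1208 and 1163 against 2093, 1978 and 2191 on day 3, so that the difference between days was 1.71 (adjusted p = 0.00221). TXNIP rose on day 3 by 0.37 (11739, 11572 and 11459 against 8791, 8873 and 9197) and fell on day 6, a difference of −0.80 (adjusted p = 0.00221). DDIT3 likewise rose by 0.39 on day 3 and fell on day 6 (difference −0.92, adjusted p = 0.00660).

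Most of the listed mitotic genes were called higher at 12.5% than at 25% on day 3 and none on day 6. Of the 35 G2/M genes 26 were called higher on day 3, with a median of 0.47, against 5.41% of all genes tested. The difference between days was called negative for 17 of the 35 and positive for 0, against 0.37% and 0.0739% of all genes tested. With equal totals or quantile normalization 25 were called on day 3, and 13 and 14 between days, and without 12.5% replicate 1 or 2 of day 6 the difference between days was called for 8 and 9. PLK1, a mitotic kinase, was at 5139.9, 5193 and 5348 against 3374, 3154 and 3428 on day 3. On day 6 it was at 4315 and 4318 against 5025, 5364 and 4647, so the 25% libraries were the higher ones and the difference on that day did not pass (−0.21, adjusted p = 0.282). The difference between days was −0.87 (SE 0.108, adjusted p = 1.56e-04). KIF20A, a kinesin of cytokinesis, gave −0.88 (adjusted p = 0.00168) and TOP2A −0.49 (adjusted p = 0.00275). HSPA8, the constitutive heat shock cognate, rose on day 3 by 1.13 and differed between days by −0.85 (adjusted p = 0.00221). With the library number (modulo 8) as a term in the fit, 0 differences between days were called by limma at an adjusted p under 0.05 (1455 at an unadjusted p under 0.05). Library numbers run in the order of the groups, so this term is partly confounded with them. The differences between days were then −0.83 for PLK1 and 1.08 for ARRDC3 (adjusted p = 0.064 for each).

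**Figure D5:**
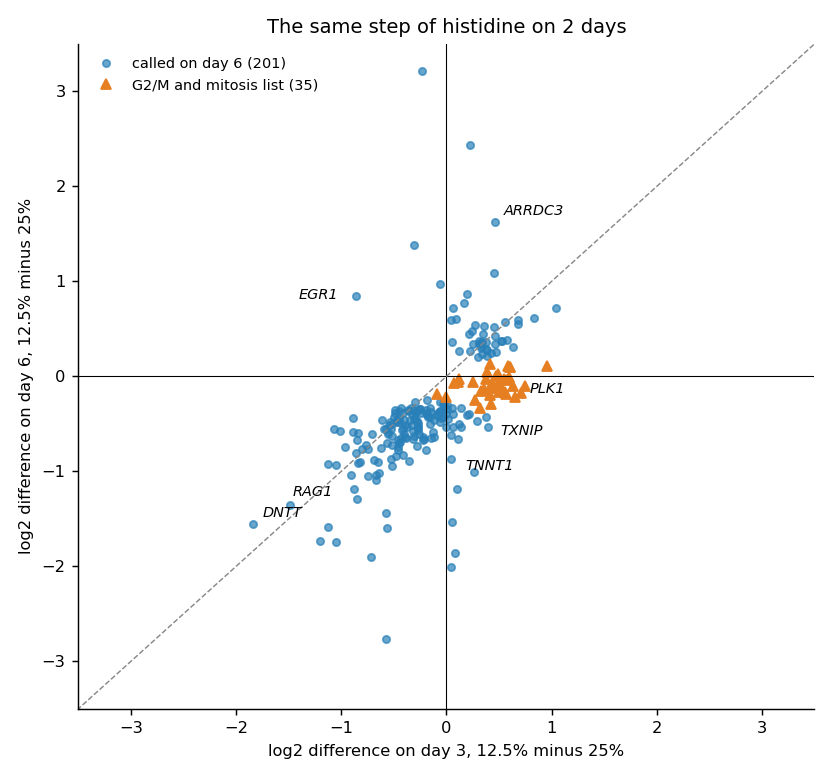
Log2 difference, 12.5% minus 25%, on day 3 (x) and on day 6 (y); each circle is 1 of the 201 genes called on day 6 and each triangle 1 of the 35 G2/M and mitosis genes, and the dashed line marks equal differences. Of the 201 circles 175 have the same sign on both days, and most triangles lie to the right of 0 near the horizontal line. The share with the same sign over all genes tested was not counted.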

How the data were processed

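RNA sequencing of 25 Jurkat libraries was deposited as 1 table of 36755 genes, and 5 of the libraries form the comparison. Column-purified total RNA went into strand-specific libraries, per the labels' protocols. FastQC 0.11.9, kallisto 0.50.1, DESeq2 1.44.0 and the build GRCh38 are listed per the submitters' processing notes. The role of each, the annotation and whether counting used strand: not given in the sources used here. What the authors deposited is a normalized signal, gene counts scaled for each library. The value of 1 read was taken as the most frequent value under 1.5, and of the values up to 20 times that, 54.9% to 73.6% in the 5 libraries lay within 0.05 reads of a whole number. Whole reads were not recovered for nearly all genes, no count model was run and the depth is unknown.

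A gene was tested if 2 or more of the 25 libraries had a value of 10 or higher, which left 22994. Values were taken as log2(value + 1), a scale on which changes of weakly expressed genes come out too small, and fitted with limma 3.58.1 (R 4.3.3, statmod 1.5.0) as 9 group means over 25 libraries, with an intensity trend and robust moderation. The spread was estimated once over all groups (25.22 residual plus prior degrees of freedom, median). P-values are two-sided and adjusted by the Benjamini-Hochberg method over all genes tested, with calls at an adjusted p under 0.05. For a single value, an exact permutation test of 2 libraries against 3 cannot go below 0.2 two-sided, so none is given. The scripts were tested on simulated data.

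The comparison, its gene lists and the rule for named genes were chosen with earlier results of these data known. The rule took the 12 largest rises and 12 largest falls among called genes without overlap, with a mean of at least 50 in 1 group and called in the same direction without 25% replicate 2. It added the 4 called members with the smallest p of each of 38 lists, the 6 largest differences between days in each direction under like filters, and 22 genes named in any case, 78 genes in all. A few genes are not reported here. Genes outside the rule (RAG2, MYB, GSR, MID1IP1 and uncalled list members) were named after their values were seen. All 78 had a gene in GENCODE 29 and 64 a RefSeq promoter window. Alternatives were other pseudocounts, filters, scalings and moderation, the compared groups alone, a replicate block, the library number of the labels modulo 8 as a term, and each library left out in turn. Library numbers follow the order of the groups: on day 6 they are 21 to 23 at 25% and 24 and 25 at 12.5%. The library number term is thus partly confounded with the groups. Where it ends a call, an effect of library number and a less exact estimate cannot be told apart.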

Additional observations from a re-analysis of the deposited data

Results flagged for a closer look

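The log2 difference between 12.5% and 25% histidine itself differed between day 6 and day 3 for 102 genes, by limma's test of that difference (day 6 minus day 3, Benjamini-Hochberg adjusted p under 0.05), 17 positive and 85 negative. Given here are the 15 of them that are named genes: the 6 furthest from 0 in each direction that met the limits on level, overlap and kind of symbol, and 3 genes named for other reasons. The positive differences were 1.71 for EGR1, 1.69 for CMPK2 (a mitochondrial nucleotide kinase induced by interferon), 1.17 for ARRDC3, 1.14 for GOLGA8A, 1.04 for ERV3-1 (an endogenous retroviral envelope gene) and 0.85 for NCR3LG1 (a ligand of a natural killer cell receptor). The negative ones of the 15 were −1.34 for the zinc finger gene ZNF671, −1.06 for MYCN, −0.92 for DDIT3, −0.91 for TNNT1, −0.88 for KIF20A, −0.87 for PLK1, −0.85 for HSPA8, −0.80 for TXNIP and −0.49 for TOP2A. Of these, CMPK2 was called on day 6 with all libraries (111 and 205 against 90.9, 43.5 and 47.6, adjusted p = 0.0127) and not without 25% replicate 2 (adjusted p = 0.0704). In each of the 15 the difference lost its call with the library number modulo 8 in the fit. The differences then lay between 0.80 (NCR3LG1) and 2.13 (CMPK2) for the positive ones and between −1.29 (ZNF671) and −0.50 (TOP2A) for the negative ones, with 1.72 for EGR1, 1.08 for ARRDC3 and −0.83 for PLK1. ARRDC3, TXNIP, HSPA8, KIF20A and PLK1 kept it under the other 20 alternatives tried, while MYCN lost it under 15 of 21, GOLGA8A under 14, CMPK2 under 13 and NCR3LG1 under 12.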

How the results depend on the processing

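With 2 libraries at 12.5%, the number of calls on day 6 rested on the spread borrowed from the other groups. The 201 calls became 12 when only the compared groups were fitted (11 shared), 113 without the trend and robust moderation, and 32 with the library number modulo 8 in the fit (31 shared). Leaving out 1 library gave 74 to 322, and other settings gave 159 to 273. Where a 12.5% library was left out, the lone other was assumed to vary like the rest. Of the 57 named genes called, 10, 38 and 21 were still called under those 3 settings, and none of the 57 changed sign under any alternative. The 1889 calls of day 3 became 1232 with quantile normalization, 238 with the library number, and 1135 to 1451 with 1 library left out. The 102 differences between days became 60 with only the compared groups, 32 without trend and robust moderation, 0 with the library number, and 33 to 238 with 1 library left out. The replicate block (190 calls on day 6, 179 shared; 1789 on day 3; 96 between days) ended the call of 1 named gene, SLC38A5. Deviations of same-numbered libraries from their group means had correlations of 0.0313 and 0.0479 over genes. With 2 libraries at 12.5% their deviations mirror each other, so these values cannot decide on pairing. The labels do not state pairs, and the numbers are not taken as pairs.

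Uncalled genes near 0 turned sign. With the library number, without 12.5% replicate 2 and without 25% replicate 3, HARS1 was −0.01355, −0.01177 and −0.01142 and HMGCS1 −0.03871, −0.03711 and −0.006726. MKI67 was 0.04005 without 12.5% replicate 1 and 0.02035 without 25% replicate 2, and HSPA1B was −0.02244 without 12.5% replicate 2 and −0.02499 without 25% replicate 2. With each library left out in turn these 4 genes reached 0.08384 (HARS1), 0.06746 (HMGCS1), −0.09153 (MKI67) and 0.2308 (HSPA1B) at the other end. The causes were not tested. Equal totals moved the median of all genes on day 6 by 0 and quantile normalization by 0.0142.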

Other observations

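The genes in this part were picked from the 201 called genes after their values had been seen, and they are given as values only. No list of such genes was fixed or tested. Among further genes called lower were 6 with known roles in different blood cells. ADA, adenosine deaminase, was at 5803 and 5661 at 12.5% against 8592, 7034 and 8019 at 25%, a fall of 1.37-fold (adjusted p = 0.00105). ARPP21, a gene of early lymphoid cells, was at 7483 and 7957 against 9789, 10387 and 9469 (log2 difference −0.36), and ZNF521, a transcription factor of progenitors, at 699 and 836 against 1250.4, 1209 and 1164 (−0.66). CXCR4, the receptor for the chemokine CXCL12, fell by 0.40 (adjusted p = 0.00223), and the progenitor transcription factor ETV6 by 0.48 (adjusted p = 2.88e-04). CTSG, a serine protease of myeloid granules, was at 1454 and 1483 against 2408, 2348 and 2082 (−0.63). All 6 were also called without 25% replicate 2. None of their libraries overlapped between the groups, which held for all 201 called genes. On day 3 CXCR4 differed in the other direction (log2 difference 0.22, adjusted p = 0.0268), while ADA fell by 0.35, ARPP21 by 0.37 and ZNF521 by 0.31. The retinoic acid enzyme ALDH1A2 stepped down across the day 6 levels, from a mean of 16149 at 100% to 3679, 3330.0 and 3418 in the 25% libraries and 2318.5 and 2349 in the 12.5% libraries.

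Among further genes called higher was MSN, moesin, which links membrane proteins to actin. It was at 30626 and 31562 against 24163, 23830 and 25183, a rise of 1.27-fold (adjusted p = 2.27e-04, and 0.00180 without 25% replicate 2). FLNA, the actin crosslinker filamin A, rose by 0.34 (adjusted p = 0.0296), and ACTG1, gamma actin, by 0.21 (adjusted p = 0.0165), but neither was called without that library (adjusted p = 0.0610 and 0.0689). ACTG1 was below its 100% mean of 41261 at both levels. GLUL, glutamine synthetase, was lower at 12.5% (3234.5 and 3206 against 3872, 3668 and 3902, log2 difference −0.24, adjusted p = 0.0400, and 0.0431 without 25% replicate 2).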
